A study of Gossypium hirsutum with 3 samples.

Results

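The bZIP and heat shock factor (HSF) genes described here are the transcription factors (TFs) of these families that the study listed as differing in expression between the A and the D subgenome of cotton. A gene was a member when its family was given as exactly bZIP or HSF in the study's list of all TFs with biased expression, in either subgenome. There were 28 such genes among the 384 listed TFs and among the 70478 genes with a value in each library. Of these, 18 were bZIP genes (7 A-biased and 11 D-biased) and 10 were HSF genes (4 A-biased and 6 D-biased). The A-biased genes made up 11 of the 28 members, and 46.9% of all biased TFs. The list rests on a comparison of D with A homeologs in the same leaf libraries that are used here. The members were thus chosen by their FPKM in the A and D copies, with the thresholds on FPKM, fold change and adjusted p that the study set, and neither the bias nor the levels below carry a test.

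Leaves of G. hirsutum TM-1 were measured by RNA-seq in 3 libraries of a single condition, with no treatment and no second genotype. TM-1 is a cultivated allotetraploid cotton, whose nucleus holds an A and a D subgenome, so that most genes exist as a pair of homeologs. The plants were 20 days old, were grown in a greenhouse, and gave their true leaves. The labels do not say whether the libraries came from separate plants, so the spread between them may be technical. Expression is given as FPKM, fragments scaled to exon length and to the number of mapped fragments, which the authors deposited for every gene. FPKM is scaled to gene length, so levels can be set side by side between genes. A gene is called expressed here when its mean FPKM over the 3 libraries was at least 1, a limit that the study also used. All 28 members passed it, but the study's own limit on FPKM had already gone into their listing.

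Transcription factors of the bZIP family carry a basic region that contacts DNA next to a leucine zipper through which they pair. They bind as dimers to sites with an ACGT core, and in Arabidopsis members of the family act in abscisic acid signalling, in the response to light and in defence. HSFs assemble as trimers on heat shock elements and switch on genes of heat shock proteins when proteins unfold. Plant HSFs fall into classes, some of which activate transcription while others lack an activation domain and can repress. H3K4me3 is a histone mark found at the start of transcribed genes, and H3K27me3 is a mark of genes held silent by Polycomb proteins.

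None of the 28 identifiers matched the gene table of the reference at hand, so apart from 1 gene that the study names, members are given by identifier. The letter and number after Gh_ are the subgenome and chromosome. Chromosomes A11, D11 and D12 held 3 members each, and the others 0 to 2. The labelled tissue could not be checked against leaf marker genes for the same reason. The libraries resembled each other, with Spearman correlations across genes of 0.981 to 0.987 and between 40027 and 41165 genes at FPKM 1 or more. Among genes of very low FPKM the commonest ratios between libraries were 0.96, 0.99 and 1.04, so their depth was close. The median FPKM of the expressed genes was 7.04, 7.17 and 6.42 in replicates 1, 2 and 3. Replicate 3 had the lowest median but the largest summed FPKM, at 1.01e+06 beside 9.41e+05 and 9.42e+05. FPKM is relative to the library, and why this median was lower was not tested. For a single gene in leaf tissue, a lower value can come from fewer cells of a type or from less RNA per cell, and these cannot be told apart.

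The bZIP genes spanned a wider range of levels than the HSF genes and held both the highest and the lowest members. Gh_A05G1751, an A-biased bZIP gene, was the highest member at FPKM 29.5, 34.1 and 28.2 in replicates 1, 2 and 3 (mean 30.6 ± 3.11, SD, n = 3). It stood above 87.3% of the expressed genes of the A subgenome. Gh_A11G2749, also A-biased, had FPKM 27.8, 26.1 and 23.4 (mean 25.8 ± 2.20). These A-biased genes lay above every other member, since their lowest library exceeded the highest library of any gene below them in the order.

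Gh_D12G1259 was the highest D-biased bZIP gene, at FPKM 15.4, 19.3 and 21.6 (mean 18.8 ± 3.14). Gh_A08G1674 followed at 16.8, 15.9 and 17.4 (mean 16.7 ± 0.71), and its values lay within the range of Gh_D12G1259. The next gene is the 1 member that the study names. Gh_D10G1862 is its RF2b, called after a rice bZIP factor that acts with RF2a and bears on the symptoms of rice tungro disease. It had FPKM 13.7, 19.3 and 11.7 (mean 14.9 ± 3.94), highest in replicate 2, and overlapped both of its neighbours in the order. RF2b and Gh_A11G3021, a bZIP gene of lower level, were the members in the study's gene list of its leaf-associated co-expression module.

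The lowest members were bZIP genes too. Gh_A01G1008 had FPKM 0.917, 0.354 and 1.86 (mean 1.04 ± 0.76), so that it was under 1 in replicates 1 and 2 and was counted as expressed through replicate 3. Gh_A01G1768 had FPKM 1.21, 1.29 and 1.0 (mean 1.17 ± 0.15). Gh_D01G0926 had FPKM 1.96, 1.78 and 0.839 (mean 1.52 ± 0.60), under 1 in replicate 3 only. These were the members nearest to the expression limit of 1, and all lay on A01 or D01. The remaining 10 bZIP genes, apart from the 4 highest, RF2b and these 3, had mean FPKM between 1.72 (Gh_D12G0736) and 14.0 (Gh_D06G1148).

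The HSF genes lay close together. Gh_A11G0089, A-biased, was the highest at FPKM 14.5, 12.5 and 13.7 (mean 13.6 ± 0.98). Gh_D03G1464 had FPKM 9.70, 8.39 and 10.3 (mean 9.45 ± 0.96), and Gh_D10G0933 had 9.20, 7.25 and 11.2 (mean 9.23 ± 1.99). These D-biased genes overlapped each other and stayed below every library of Gh_A11G0089. Gh_D11G0302 had FPKM 8.10, 6.80 and 7.50 (mean 7.46 ± 0.65). The other 6 HSF genes had means from 6.23 (Gh_A06G1989) down to 3.83 (Gh_A07G0115). No HSF gene was below FPKM 3.40 in any library.

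**Figure D1:**
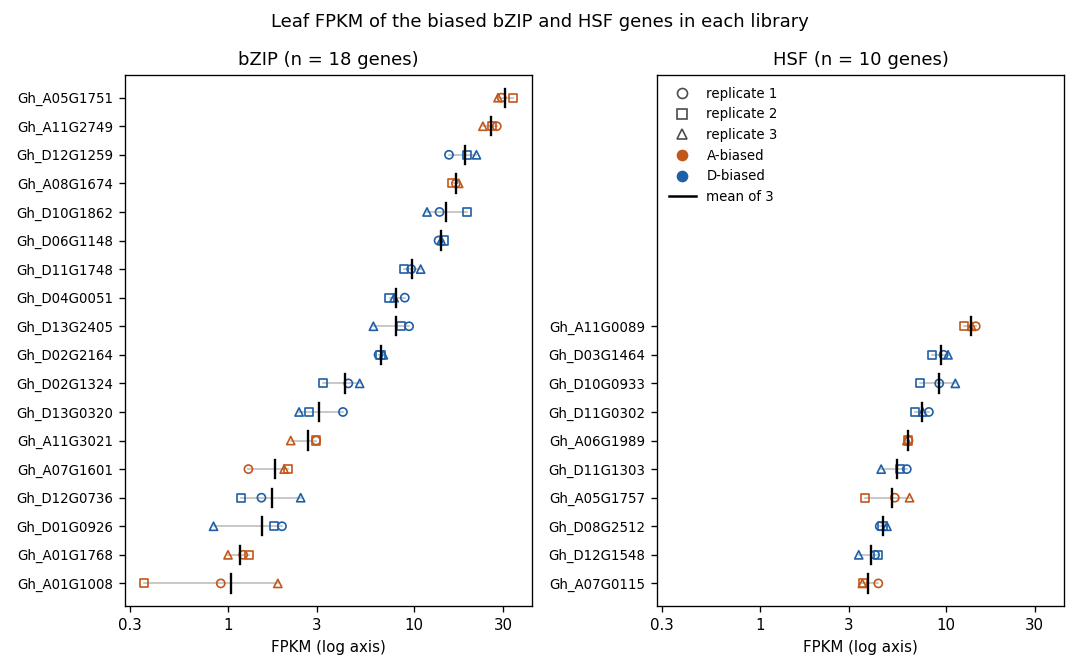
FPKM (log axis) of each bZIP gene (left) and each HSF gene (right) in replicate 1 (circle), 2 (square) and 3 (triangle), with the mean as a black bar and the A- or D-biased class by colour. The 18 bZIP means ran from 1.04 to 30.6, while the 10 HSF means stayed between 3.83 and 13.6.

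The families differed more in the width of their levels than in the middle. The ratio of the highest to the lowest mean was 29.4 among bZIP genes and 3.54 among HSF genes. Set against the HSF means, 7 bZIP genes lay below the lowest, 5 between the lowest and the highest and 6 above the highest. In single libraries these counts were 7, 7 and 4 for replicate 1, 8, 4 and 6 for replicate 2, and 7, 6 and 5 for replicate 3, so bZIP genes stood on both sides of the HSF genes each time. This count was chosen after the values were seen, and the families also differ in size.

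The median FPKM was 7.31 for bZIP and 5.84 for HSF, beside 6.38 for the other 356 biased TFs and 6.92 for all 40861 expressed genes. On the log2(FPKM + 1) scale, the bZIP median exceeded the HSF median by 0.25, 0.20 and 0.03 in replicates 1, 2 and 3 (0.16 ± 0.11, SD over libraries). The sign of this difference depends on the summary, because the mean over members of log2(FPKM + 1) gave −0.03. A level of FPKM 10 or more was reached by 6 bZIP genes and 1 HSF gene. These 7 of 28 compare with 35.7% of all biased TFs and 37.8% of the expressed genes. In every library 26 of the 28 had FPKM 1 or more, as did 96.1% of all biased TFs, and the exceptions were Gh_A01G1008 and Gh_D01G0926.

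Ordered by mean, most neighbouring members could not be separated. Of the 27 neighbouring pairs, 21 had overlapping values between libraries. The 6 breaks fell below Gh_A05G1751, Gh_A11G2749, Gh_A11G0089, Gh_D02G2164, Gh_A06G1989 and Gh_A11G3021. Over all 378 possible pairs of members, 325 did not overlap, or 86.0%. The order is thus resolved at a distance but not from one gene to the next.

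In the bZIP family, the A-biased genes fell into a high and a low set. Of the 7 A-biased bZIP genes, Gh_A05G1751, Gh_A11G2749 and Gh_A08G1674 had means of 16.7 or more, and the other 4 were at 2.71 or less, with none between. The 11 D-biased bZIP genes ran across that gap, from 1.52 to 18.8. The median FPKM was 2.71 for the A-biased and 7.99 for the D-biased bZIP genes. On the log2(FPKM + 1) scale the A-biased median was lower by 1.32, 1.08 and 1.30 in the 3 libraries (−1.23 ± 0.13), a difference that exceeds its spread over libraries. The median of 7 genes falls in the low set, and with the mean over members in place of the median the difference was −0.15.

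In the HSF family the classes lay together. The median FPKM was 5.67 for the 4 A-biased and 6.45 for the 6 D-biased genes. The difference in median log2(FPKM + 1) was −0.25, −0.31 and 0.05 (−0.17 ± 0.19), so it changed sign in replicate 3 and was within the spread of the libraries, and the mean over members gave 0.02. Over both families the A-biased members were lower by 0.53, 0.74 and 0.13 (−0.47 ± 0.31), and with the mean over members in place of the median the difference was −0.09.

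The bZIP median stood below the HSF median among A-biased members and above it among D-biased members. The difference in median log2(FPKM + 1), bZIP minus HSF, was −0.84 ± 0.33 in the A-biased class (7 and 4 genes) and 0.22 ± 0.07 in the D-biased class (11 and 6 genes). Each kept its sign in all 3 libraries. With the mean over members they shrank to −0.13 and 0.04. These counts are small, and the difference between the classes was not tested.

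Histone marks came from the study's lists of marked TFs. A gene was counted there when a peak of the mark overlapped it or its near flanks, with peaks called in 1 replicate of each mark. H3K4me3 was listed for all 10 HSF genes. It stood alone for 9 and together with H3K27me3 for Gh_A05G1757. Among bZIP genes, 12 of 18 were listed with H3K4me3 alone, 2 with both marks, and 4 with neither. No member was listed with H3K27me3 alone. Over all biased TFs the shares were 68.2% for H3K4me3 alone, 18.0% for both, 4.17% for H3K27me3 alone and 9.64% for neither.

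The members listed with H3K4me3 alone had the higher levels. Their median FPKM was 7.99 (21 genes), against 3.10 for the 3 genes with both marks and 2.71 for the 4 with neither. The same medians over all biased TFs were 8.77, 3.24 and 3.99, and 3.66 for H3K27me3 alone, so the members followed the order seen in the whole list for the first and the second class. Between the 21 genes and the other 7 members, the difference in median log2(FPKM + 1) was 0.94, 1.05 and 1.32 in the 3 libraries (1.11 ± 0.19). It exceeded its spread over libraries, and the classes overlapped widely gene by gene. Within H3K4me3 alone, the bZIP median stood 0.53, 0.42 and 0.51 above the HSF median (0.49 ± 0.06), and 0.34 above it with the mean over members.

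**Figure D2:**
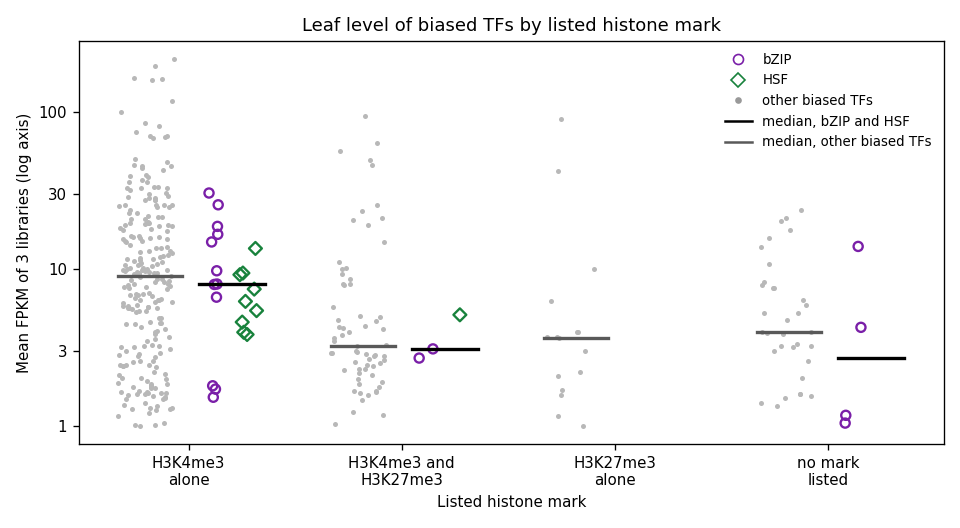
Mean FPKM of 3 libraries (log axis) of bZIP genes (circles), HSF genes (diamonds) and the other 356 biased TFs (grey points), by the histone mark listed for each gene, with a line at the median of each set. Of the 28 members, 21 stand under H3K4me3 alone, 3 under both marks, 0 under H3K27me3 alone and 4 under no listed mark.

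The genes with both marks were of low to middle level. Gh_A05G1757, an A-biased HSF gene, had FPKM 5.31, 3.66 and 6.38 (mean 5.12 ± 1.37). Gh_D13G0320, a D-biased bZIP gene, had 4.15, 2.74 and 2.41 (mean 3.10 ± 0.92). Gh_A11G3021, the A-biased bZIP gene of the module list, had 2.98, 2.97 and 2.18 (mean 2.71 ± 0.46). They overlapped in part, and ranked 21, 36 and 45 among the 69 biased TFs listed with both marks.

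The genes with neither mark ranged from a high to the lowest level of their class. Gh_D06G1148 had FPKM 13.5, 14.4 and 14.0 (mean 14.0 ± 0.44), rank 6 of the 37 biased TFs without a listed mark. Gh_D02G1324 had 4.44, 3.23 and 5.10 (mean 4.26 ± 0.95), rank 18. Gh_A01G1768 and Gh_A01G1008, whose values are given above, took ranks 36 and 37, the lowest of that set. The mean of Gh_D06G1148 was above that of every HSF gene, all of which were listed with H3K4me3, although its values overlapped those of Gh_A11G0089.

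Replicate spread was measured as the coefficient of variation (CV), the SD over the mean of the 3 libraries. The median CV of the members was 12.6%, close to 12.5% for the expressed genes and 11.6% for all biased TFs. It was 16.9% for bZIP and 10.7% for HSF genes. CV falls with level in these libraries. At FPKM 1 to 10 the median CV was 22.1% for 12 bZIP genes and 11.4% for 9 HSF genes, beside 15.4% for 25404 genes, but 7 of those bZIP genes lay below every HSF mean. The 5 bZIP genes within the range of the HSF means, a set chosen after the values were seen, had a median CV of 10.5%, close to that of the HSF genes, and the 7 below had 29.8%. At FPKM 10 or more the 7 members had 8.56% and the 15457 genes 8.93%. Of the 28 members, 14 lay above the median CV of their class, 4 above its 90th percentile and 4 below its 10th.

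The most variable members were bZIP genes of low level. Gh_A01G1008 had a CV of 72.8%, the largest of all 384 biased TFs, and its highest library was 5.25 times its lowest. Gh_D01G0926 had a CV of 39.4% and a ratio of 2.33, with replicate 3 the low one. Gh_D12G0736, D-biased, had FPKM 1.52, 1.18 and 2.46 (mean 1.72 ± 0.67, CV 38.8%) and a ratio of 2.10. These were the only members whose highest library reached 2 times the lowest, 3 of 28. Over the expressed genes the share was 6.37%, and 9.50% at FPKM 1 to 10. RF2b had a CV of 26.4%, larger than that of 96.5% of the genes at FPKM 10 or more. In that class the CV reached 97.4%. The class also holds genes of far higher level than RF2b, and CV falls with level.

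The least variable member was an HSF gene. Gh_A06G1989, A-biased, had FPKM 6.29, 6.24 and 6.17 (mean 6.23 ± 0.06, CV 0.99%), and only 0.346% of the genes at FPKM 1 to 10 had a smaller CV. Gh_D02G2164, a D-biased bZIP gene, had 6.45, 6.60 and 6.84 (mean 6.63 ± 0.20, CV 3.02%). The unmarked Gh_D06G1148 came next with a CV of 3.12%. These genes kept nearly the same FPKM in all libraries, although a CV over 3 values is itself imprecise.

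**Figure D3:**
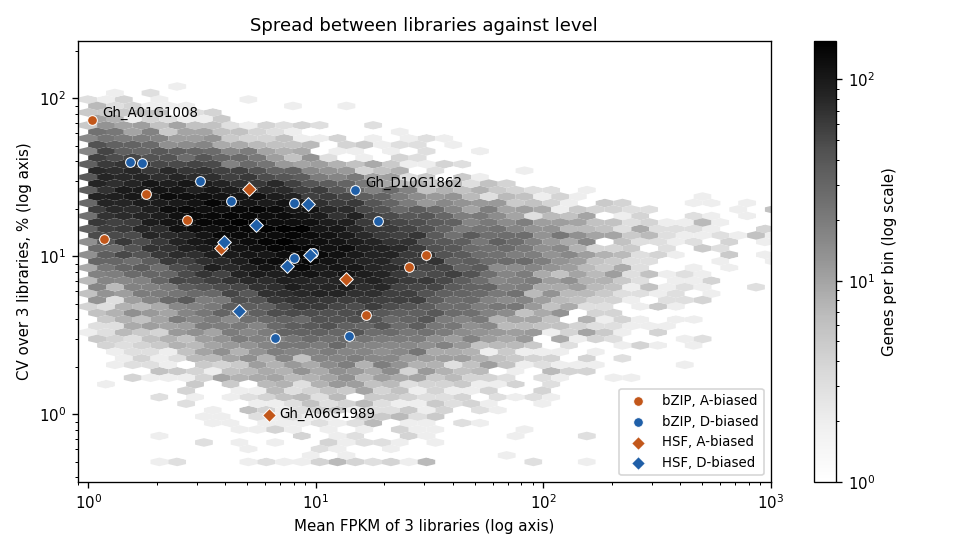
CV over 3 libraries (log axis) against mean FPKM (log axis) for the bZIP genes (circles) and HSF genes (diamonds), over the density of all expressed genes in grey, where genes of smaller CV than the lowest grey row are drawn in that row and genes beyond the right edge are not drawn. Gh_A01G1008 (72.8%) and Gh_A06G1989 (0.99%) mark the ends of the members. RF2b, Gh_D10G1862, has a larger CV than 96.5% of the genes at FPKM 10 or more.

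Fewest members had their highest value in replicate 2. The highest value fell in replicates 1, 2 and 3 for 11, 6 and 11 members, where 29.7%, 37.8% and 32.5% of the expressed genes had theirs. The lowest value fell there for 5, 11 and 12 members, beside 21.8%, 28.3% and 49.9%. All biased TFs had their highest value there in 23.2%, 29.2% and 47.7%, and their lowest in 27.6%, 40.6% and 31.8%. Among the HSF genes, 5 of 10 were lowest in replicate 2 and 1 was highest in it. These were Gh_A11G0089, Gh_D03G1464, Gh_D10G0933, Gh_D11G0302 and Gh_A05G1757, of which the last had 3.66 in replicate 2 and at least 5.31 in the others. The summed FPKM of the HSF genes was 72.1, 63.0 and 71.5.

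The median level of replicate 3 was lower for genes at large, so libraries were also scaled to 1 median. The highest value then fell in replicates 1, 2 and 3 for 8, 4 and 16 members, beside 23.9%, 28.1% and 48.0% of the expressed genes. The lowest fell there for 6, 14 and 8 members, beside 25.5%, 39.6% and 35.0%. After scaling, 7 of the 10 HSF genes were lowest in replicate 2 and 7 were highest in replicate 3. The expressed genes, too, were then lowest most often in replicate 2 and highest most often in replicate 3. The libraries are of the same condition, and whether the members differ from genes at large in this was not tested.

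Both homeologs could be read for 3 members, all bZIP genes of A01 or D01, because the pair lists used here cover mainly that chromosome pair. For Gh_D01G0926 the A copy, Gh_A01G0888, had FPKM 0.153, 0.313 and 0.134. All 3 libraries of the D copy lay above all 3 of the A copy, with a ratio of means of 7.62. On the log2(FPKM + 1) scale D exceeded A by 1.36, 1.08 and 0.70 (1.05 ± 0.33). The difference was smallest in replicate 3, where the D copy was at 0.839.

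For Gh_A01G1768 the D copy, Gh_D01G2011, had FPKM 0.0827, 0.259 and 0.0999. The A copy was higher in every library, with a ratio of means of 7.94. D minus A was −1.03, −0.87 and −0.86 (−0.92 ± 0.09). For Gh_A01G1008 the D copy, Gh_D01G1068, was listed at 0 in every library, so no fold is given. In all 3 pairs the expressed copy was itself near FPKM 1 and the other one near 0.

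In each of the 3 pairs the copies were apart in all libraries. Of the 1999 listed pairs with an expressed copy, 62.4% did not overlap and 19.3% differed by 1 or more on log2(FPKM + 1). The lists used here include the study's list of differentially expressed pairs, so these are not shares over homeolog pairs at large. The D against A contrast chose the members, so nothing is read from these counts. Whether reads that match both homeologs bear on a copy at 0 was not tested.

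The neighbouring pairs on these chromosomes were looked at after these values were seen. Of the 5 listed pairs on either side of the pair of Gh_D01G0926, 7 of 10 were expressed, with D minus A between −0.93 and 1.30 on log2(FPKM + 1), where the member pair had 1.05. The pair at 1.30, at the edge of the window, leaned to D as the member did. Around Gh_A01G1768, 7 of 10 were expressed, with D minus A between −0.92 and 1.83, where the member pair had −0.92. The pair at 1.83, Gh_A01G1774 and Gh_D01G2016, leaned to D, opposite to the member. Some neighbours thus differed as much as the member pairs did.

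Around Gh_A01G1008 several neighbours leaned to the A copy as well. Of 6 expressed neighbouring pairs, 3 were higher in A by 1 or more and none in D. Gh_A01G1001 had a mean FPKM of 3.78 with its D copy listed at 0, and Gh_A01G1003 had 3.50 with its listed copy, Gh_D13G0815, at 0. Gh_A01G1016 had 3.98 and its D copy 0.783. The other 3 differed by less than 1. How the 3 surroundings differ was not tested.

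**Figure D4:**
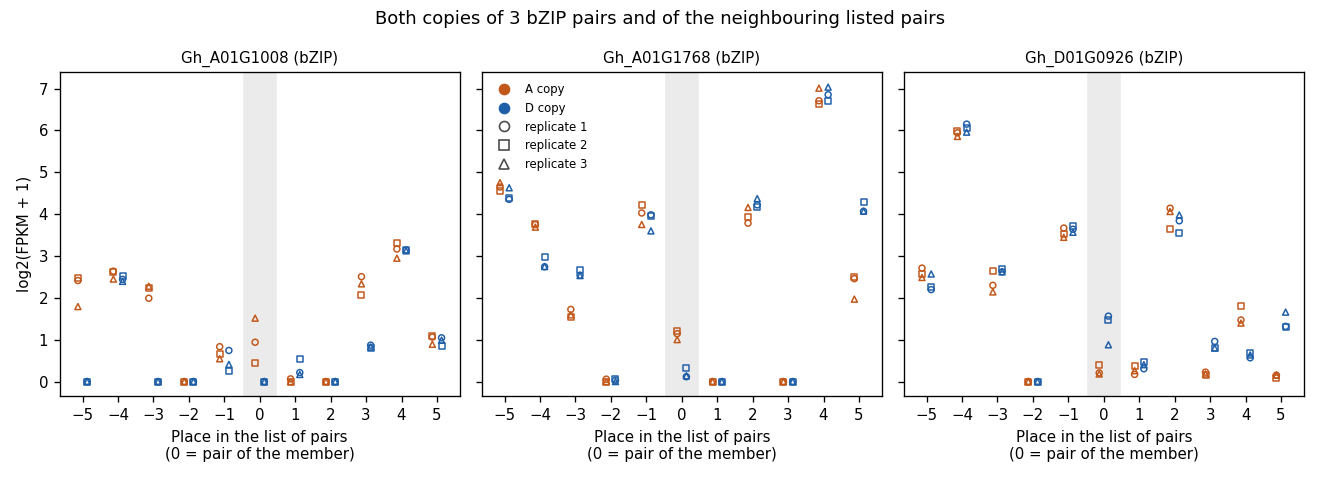
Log2(FPKM + 1) of the A copy (orange) and D copy (blue) in replicates 1 to 3 for the pair of each of 3 bZIP genes (place 0, shaded) and the 5 listed pairs on either side. The copies of the shaded pairs do not overlap, and around Gh_A01G1008 the A copy is also higher by 1 or more in 3 neighbouring pairs.

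The surroundings of each member were described by its place among neighbouring genes. Each was ranked by mean FPKM among itself and the 5 nearest identifiers on either side of its chromosome, whose numbers follow the order of genes. Only Gh_A05G1751 came first of its 11, 1 of 28 members, whereas 14.8% of the expressed genes did. The median rank of the members was 4, and 13 of 28 were among the highest 3 of their window, beside 44.5% of the expressed genes. With 10 identifiers on either side Gh_A05G1751 was again the only one, beside 7.90% of the expressed genes, and 3 of 28 were among the highest 3, beside 23.6%.

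The highest bZIP gene and the HSF gene with both marks lay near each other. Gh_A05G1751 and Gh_A05G1757 are 6 identifiers apart and both A-biased. Between them, Gh_A05G1754 had a mean FPKM of 29.4, close to that of Gh_A05G1751, Gh_A05G1752 had 9.08, and the rest were at 1.68 or less. Level thus changed from gene to gene across this stretch.

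The number of expressed genes around a member varied. Gh_D02G2164, Gh_D12G0736 and Gh_A01G1008 each had only 3 expressed genes among the 10 around them, with median FPKM of 0.0109, 0.0124 and 0.00757. Gh_D12G0736 and Gh_A01G1008 ranked 4 in their windows, below all 3 of their expressed neighbours, and Gh_D02G2164 ranked 3. Gh_A08G1674, at 16.7, lay among 9 expressed genes, of which Gh_A08G1679 had a mean FPKM of 487.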

How the data were processed

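RNA-seq of TM-1 leaves was measured in 3 libraries, 1 group. Trimming by the authors used fastp, with a minimum quality of 25 and a minimum length of 20 bp. HISAT2 placed the reads on the TM-1 genome, and StringTie gave FPKM for the genes of the CottonGen annotation. The versions are not given in the sources used here. The FPKM deposited by the authors entered all steps unchanged, except where libraries were scaled. FPKM are not counts, so no interval from counting was computed, and the number of libraries limits the precision. Reads that fit both homeologs can be assigned to either copy, which FPKM does not show.

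Family, subgenome, histone marks, homeolog pairs and the module list were taken from the study's tables as lists, with none of their values. The 28 members, the lists and the comparisons were chosen with earlier results of these data known. Named with every library were the 4 highest bZIP and HSF genes, the 3 lowest members and those with both marks or none. So were the 3 largest and 3 smallest CVs, those with a listed homeolog and those in the module list.

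Medians of log2(FPKM + 1) were taken per library and differences given as mean ± SD over libraries. Genes are not replicates, so no test was run. Python 3.11.15, numpy 2.4.6, pandas 2.3.3 and matplotlib 3.10.9 were used. The CV, the share of genes highest in a library and the library scaling were tested on simulated data, and the other summaries were not. Alternatives covered the pseudocount, mean or median, a filter, library scaling, window size and leaving out each library. Homeologs of the other 25 members, the ChIP-seq libraries and other tissues were not analysed here. No sequence is shown, since none of the sources used here holds one for a member.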

Additional observations from a re-analysis of the deposited data

How the results depend on the processing

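The 3 libraries form 1 group, so no groups of libraries could be paired. The A and D copies of a homeolog pair were compared within each library. Of 49 alternative values, 34 stayed within the spread of the libraries (for counts, within 1.5 times), 13 moved further and 2 reversed. For the group differences, the reference was the value from mean FPKM, 0.28 for the families, and not 0.16, the mean over libraries. Set against the latter, some labels would differ. For the median CV, the limit was the SD of the values with each library left out. Values with a library left out share libraries with the main value, so they meet such a limit easily. The family difference, 0.28 from mean FPKM over the libraries, became −0.029 with the mean over members and 0.40 when only members with FPKM 1 or more in every library were used. The A-biased minus D-biased difference moved from −0.47 to −0.089 with the mean over members. The filter leaves out the bZIP genes Gh_A01G1008 and Gh_D01G0926, and the cause of the moves with the mean was not tested. Within classes the mean over members, an alternative added after the data were seen, gave −0.149 for bZIP and 0.017 for HSF genes (A minus D, the latter reversed from −0.15). The H3K4me3 difference moved from 1.13 to 1.34 at a pseudocount of 0.1. The differences of the pairs grow as the pseudocount shrinks. For Gh_D01G0926 the difference was 2.40 at 0.1 and 1.61 at 0.42, and for Gh_A01G1768 it was −2.42 and −1.50. Median spread was 0.14 as SD of log2(FPKM + 1), which is another unit, so its place among the moved values carries no meaning. Leaving out each library gave 0.22 to 0.27 for the families, −0.62 to −0.35 for A minus D, 1.04 to 1.21 for H3K4me3 and a median CV of 10.2% to 13.8%, lowest without replicate 3. It gave 0.89 to 1.22 for the pair of Gh_D01G0926 and −0.95 to −0.87 for that of Gh_A01G1768. The pair with a copy at 0 was left out of these alternatives. With 3 libraries, low genes near FPKM 1 are the least precise.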

Other observations

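Among the 13 TF families with at least 10 biased genes, the bZIP median FPKM of 7.31 came 4th and the HSF median of 5.84 came 6th. C2H2 zinc finger genes were first at 13.2 and C2C2-Dof genes last at 3.66. These places were looked up after the values were seen, and neighbouring medians lie close (5.90 for GARP-G2-like and 5.71 for B3 genes on either side of HSF). The HSF gene Gh_A06G1989 also appears in the study's list of A-subgenome genes with broad H3K4me3 at the promoter. Of the 8 members on A01 to A09, it was the only 1 found there. That list was at hand only in part, and the share of all genes in it was not computed. Nothing is therefore read from this count, and members on other chromosomes are not described.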
